A study of Homo sapiens with 12 samples.

Results

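The genes of the phagocyte NADPH oxidase were followed in MOLM14 cells, a monocytic acute myeloid leukemia line with a KMT2A fusion, under all-trans retinoic acid (ATRA) and knockdown of the coregulator RIP140. The set held CYBA, CYBB, CYBC1, NCF1, NCF4, RAC1 and RAC2, taken as the rows of the deposited count table whose Ensembl IDs map to these symbols. They are 7 of 61487 gene IDs, and 6 of the 7 had enough counts to be tested. CYBB was the member left untested. Against untreated cells NCF1 was 15.2-fold higher in ATRA cells. The changes of the other 5 tested members were under 1.5-fold in every comparison, and CYBB had between 0 and 5 counts in each library.

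The phagocyte oxidase carries electrons from NADPH across a membrane to oxygen and so makes superoxide, which neutrophils and macrophages use to kill engulfed microbes. Its catalytic core is a membrane heterodimer of CYBB and CYBA, which is inactive until a cytosolic complex that includes NCF1 and NCF4 docks on it together with a GTP-bound RAC protein. Loss of CYBB, CYBA, NCF1, NCF4 or CYBC1 causes chronic granulomatous disease in humans. Myeloid precursors gain oxidase activity as they mature, and retinoic acid is a classical inducer of that maturation in leukemia cell lines.

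All cells were of the shRIP140 line, which carries a doxycycline-driven short hairpin RNA against RIP140, the product of NRIP1. There were 4 groups of 3 libraries: ATRA+DOX cells received ATRA at 1 µM for 48 h and doxycycline (DOX) at 50 ng/mL, ATRA cells received the retinoid alone, DOX cells received doxycycline alone, and untreated cells received neither. How long doxycycline was given is not in the labels. Doxycycline and the hairpin always came together, so their parts in any DOX difference cannot be told apart. The labels do not say whether the line is 1 clone. Nothing in them says that the 3 libraries of a group came from separate cultures, so the p-values measure the spread between these libraries.

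Libraries held 2685984 to 19358619 counts, and the smallest was DOX replicate 3. The share of counts on the mitochondrial ribosomal RNAs MT-RNR1 and MT-RNR2 ran from 1.24 to 2.02% in ATRA+DOX, 2.09 to 2.75% in ATRA, 1.02 to 2.18% in DOX and 2.54 to 4.60% in untreated libraries. The 12 markers listed for a monocytic leukemia line summed to between 1112 and 1383 CPM (counts relative to the scaled library total) in the 12 libraries. Of these markers 9 were abundant enough to test. The sum hid changes both ways. In ATRA over untreated cells 5 of the 9 were higher and 3 lower at an edgeR adjusted p under 0.05. Of all genes, 15.7% were higher and 13.2% lower by that measure. CD14, CD68 and ANPEP were near the floor, with 3 to 8, 18 to 36 and 0 to 26 counts summed over a group. Lymphoid markers summed to at most 3.28 CPM, with CD3E and CD2 at 0, and erythroid and megakaryocyte markers to at most 0.768 CPM, with PF4 at 0. A list of 6 fibroblast, epithelial and endothelial markers, of which KRT18 and PECAM1 were abundant enough to test and EPCAM was at 0 throughout, summed to 218 to 254 CPM in ATRA+DOX, 174 to 187 in ATRA, 135 to 156 in DOX and 91.4 to 104 in untreated libraries. Most of that sum was PECAM1, an adhesion protein that monocytes also carry. Its part in the results was not tested. NRIP1 averaged 18.9 ± 2.66 CPM in ATRA+DOX, 43.8 ± 7.10 in ATRA, 16.6 ± 2.24 in DOX and 57.3 ± 3.51 in untreated cells (SD, n = 3 each).

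Levels were first set side by side per kilobase of annotated exons, the scale on which genes of different length can be compared. CYBA, which encodes the small subunit of the membrane cytochrome, was the highest of the set in every group, at 189 ± 19.9 CPM per kb in ATRA+DOX, 188 ± 28.1 in ATRA, 163 ± 25.3 in DOX and 129 ± 13.9 in untreated cells (SD, n = 3 each). RAC2, the GTPase found mainly in blood cells, came next at 114 ± 9.93 CPM per kb in ATRA+DOX, 92.9 ± 4.56 in ATRA, 128 ± 7.19 in DOX and 105.6 ± 10.1 in untreated cells. The DOX libraries of CYBA and RAC2 overlapped, and those of the other 3 groups did not. RAC1 and NCF4 were neighbours at about 50 CPM per kb, with overlapping libraries in all groups but ATRA, where NCF4 lay above RAC1 on this scale. Before scaling by length, RAC1 averaged 162 CPM and NCF4 106 CPM in ATRA cells, so that order depends on the length used. CYBC1 lay between 13.6 and 18.2 CPM per kb in all 12 libraries.

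**Figure D1:**
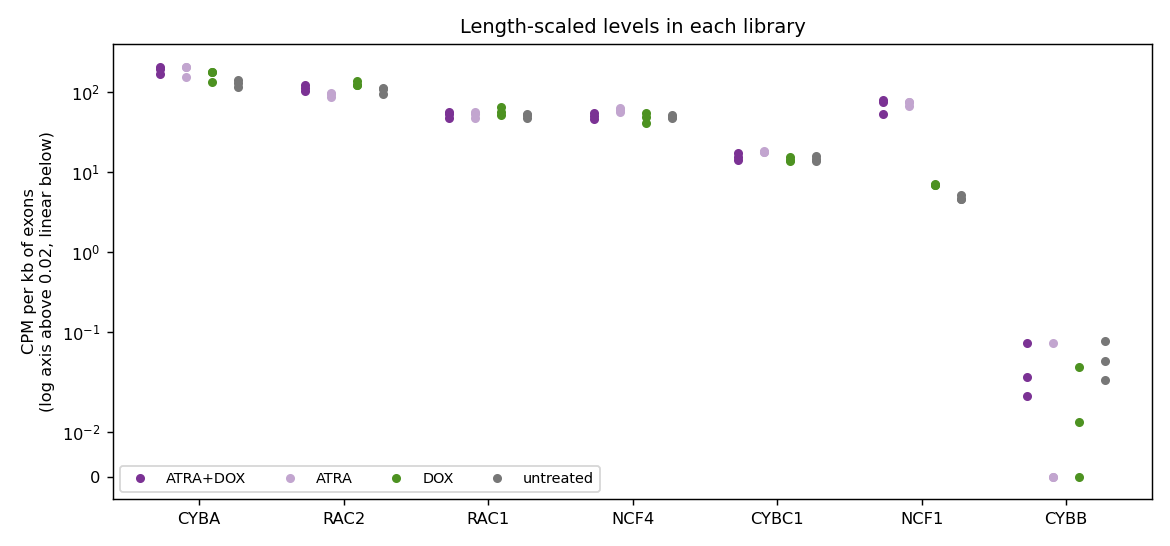
Levels per kilobase of exons in each library for the 7 oxidase genes, on an axis that is logarithmic above 0.02 CPM per kb and linear below. Each point is 1 library, coloured by group. NCF1 lies at 53.7 to 80.6 CPM per kb in the libraries with ATRA and at 4.58 to 7.10 in those without it, and CYBB lies below 0.1 CPM per kb in every library.

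NCF1, the organiser subunit of the cytosolic complex, held the third place with ATRA, at 69.9 ± 14.3 CPM per kb in ATRA+DOX cells and 72.8 ± 4.59 in ATRA cells. Without ATRA it held the sixth, at 6.96 ± 0.127 CPM per kb in DOX cells and 4.76 ± 0.297 in untreated cells. Its ATRA libraries overlapped with neither neighbour, RAC2 above and NCF4 below, while its lowest ATRA+DOX library lay among those of RAC1. CYBB came last in all 4 groups. Exon lengths are unions over all annotated transcripts, which lowers the scaled level of a gene whose union is long beside its transcripts. CYBA has 3357 bases of exons and a longest transcript of 1415 bases, NCF1 has 3462 and 2354, and RAC2 has 2532 and 1482. The places of members close in level depend on this length, and other lengths were not tested. That of NCF1 also depends on how its reads were placed against those of its copies, described below.

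CYBB encodes the catalytic subunit, which holds the haem and flavin groups of the enzyme (X:37780011-37813461 on GRCh38, plus strand). Its libraries held 2, 1 and 3 counts in ATRA+DOX, 5, 0 and 0 in ATRA libraries, 2, 1 and 0 in DOX libraries, and 2, 4 and 2 in untreated cells. These are 22 counts in all 12 libraries, and no other gene shares its exons in GENCODE 29. Pooled over the 3 libraries of a group, the level was 0.157 CPM in ATRA+DOX (exact 95% Poisson interval 0.0575 to 0.341), 0.141 in ATRA (0.0457 to 0.328), 0.0899 in DOX (0.0185 to 0.263) and 0.199 in untreated cells (0.0861 to 0.393). The intervals, which cover counting error only, overlap in every pair of groups. A difference in CYBB was not detectable at this depth, and a fit with no filter on low counts gave edgeR adjusted p-values from 0.654 to 1 over the 6 contrasts.

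The promoters of CYBB and CYBA, the members of lowest and highest level, and of NCF1, which changed most with ATRA, are shown for their different makeup, as 250 bases before and 50 after the start in the RefSeq table for GRCh38.p14, which held 4 of the 7 members. They lie at 7:74773761-74774060 (plus strand) for NCF1, X:37779809-37780108 (plus strand) for CYBB and 16:88651004-88651303 (minus strand) for CYBA. Each is written 5′ to 3′ on the strand of its gene, and capitals mark every match, on either strand, to GAGGAA (a PU.1 motif), GAAANNGAA (an interferon regulatory factor motif), AGGTCA or AGTTCA (units of retinoid receptor sites) or GGGCGG (a GC box).
NCF1: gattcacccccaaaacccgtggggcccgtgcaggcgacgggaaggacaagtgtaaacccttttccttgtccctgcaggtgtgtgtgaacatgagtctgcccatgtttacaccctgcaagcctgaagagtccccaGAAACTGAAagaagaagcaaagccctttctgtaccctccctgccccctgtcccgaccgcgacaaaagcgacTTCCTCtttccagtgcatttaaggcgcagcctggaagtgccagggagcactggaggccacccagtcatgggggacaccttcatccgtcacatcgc
CYBB: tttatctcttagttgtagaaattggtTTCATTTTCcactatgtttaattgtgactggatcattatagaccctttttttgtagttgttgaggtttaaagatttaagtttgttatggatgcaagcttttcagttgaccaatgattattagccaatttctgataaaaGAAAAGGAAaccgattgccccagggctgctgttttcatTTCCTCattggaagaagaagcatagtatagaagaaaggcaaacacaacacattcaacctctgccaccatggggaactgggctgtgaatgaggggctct
CYBA: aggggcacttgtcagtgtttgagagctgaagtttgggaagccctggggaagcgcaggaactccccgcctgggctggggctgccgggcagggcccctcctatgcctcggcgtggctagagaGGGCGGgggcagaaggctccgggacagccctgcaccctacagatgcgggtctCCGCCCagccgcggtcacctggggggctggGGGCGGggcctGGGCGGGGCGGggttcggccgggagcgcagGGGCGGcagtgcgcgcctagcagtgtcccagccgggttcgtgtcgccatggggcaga

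NCF1 and CYBB shared a layout: GAGGAA began 45 bases before the start in NCF1 and 48 before it in CYBB, both on the minus strand. NCF1 also held 1 GAAANNGAA, 116 bases before the start, and CYBB held 2, at 224 and 86 bases. Among 35116 promoters of this length 27.9% held GAGGAA and 8.1% held GAAANNGAA. CYBA held neither and had 6 GC boxes, of which those at 37 and 32 bases before the start share 1 base; 45.0% of promoters held at least 1. Its G and C content was 72.7%, against 57.3% in NCF1 and 37.7% in CYBB. AGGTCA occurred in none of the 4 member promoters and AGTTCA in that of CYBC1 alone, where 13.8% and 10.4% of all promoters hold them. A match describes letters and not binding. The layout shared by NCF1 and CYBB went with 186 to 279 CPM of NCF1 in the libraries with ATRA, while CYBB reached at most 0.343 CPM in any library.

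NCF1 gave the main response of the set (7:74773962-74789315, plus strand). It had 186, 262 and 279 CPM in ATRA+DOX libraries, 262, 260.5 and 234 in ATRA libraries, 24.0, 23.7 and 24.6 in DOX libraries, and 15.9, 15.9 and 17.7 in untreated libraries. Every library with ATRA was above every library without it, and every DOX library was above every untreated one. ATRA+DOX replicate 1 was the lowest with ATRA. In bulk RNA a change in the share of cells that express a gene and a change in RNA per cell cannot be told apart.

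Set against untreated cells, NCF1 rose with ATRA by 3.93 ± 0.13 on the log2 scale (SE), a fold of 15.2 with a 95% interval of 12.6 to 18.3 and an edgeR adjusted p of 1.42e-15. Set against DOX cells, it rose in ATRA+DOX cells by 3.33 ± 0.13, a fold of 10.1 (95% interval 8.36 to 12.2, adjusted p = 3.65e-14). Under DOX alone it rose by 0.53 ± 0.14 over untreated cells, a fold of 1.45 (adjusted p = 0.0159). Between ATRA+DOX and ATRA cells the difference was −0.06 ± 0.11 (95% interval −0.28 to 0.17, adjusted p = 0.816).

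**Figure D2:**
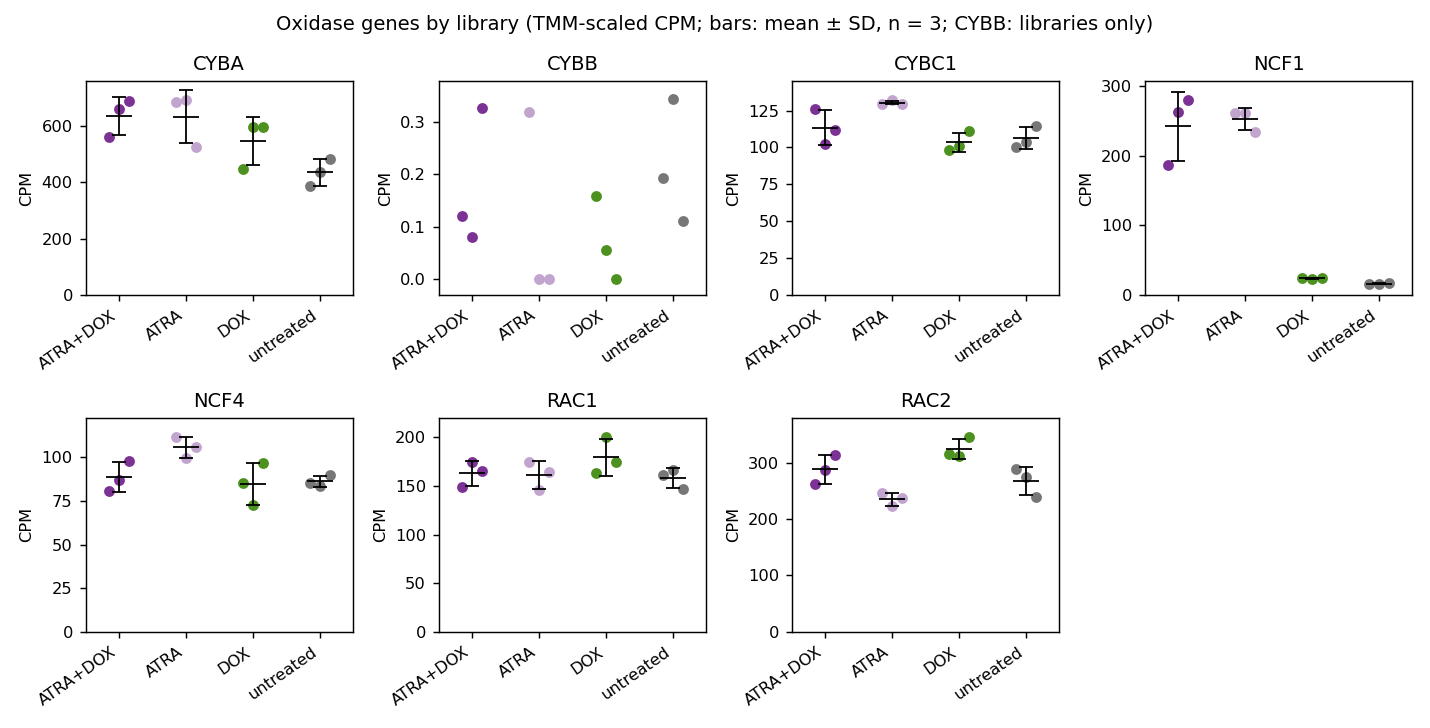
CPM in each library for the 7 members, 1 panel a gene with its own axis from 0. Points are libraries and bars are mean ± SD (n = 3), left out for CYBB; NCF1 lies between 186 and 279 CPM in the 6 libraries with ATRA and between 15.9 and 24.6 CPM in the 6 without it.

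NCF1 has a pair of near-identical copies on chromosome 7, the pseudogenes NCF1B (7:73220624-73235945, plus strand) and NCF1C (7:75156639-75172044, minus strand), so its reads are hard to place. The main transcript of NCF1 and that of NCF1C differ over 1396 bases at 8 mismatches and 1 gap of 2 bases, an identity of 99.43%. Of all stretches of 50, 100 and 150 bases in the NCF1 transcript, 84.5, 64.5 and 45.4% occur unchanged in a copy. The gap lies at transcript position 142 and takes 2 letters out of a TG repeat, the best known difference between the gene and its copies. Transcripts are those of GENCODE 29. The stretch is shown with the letters that the copy lacks in capitals, as the alignment placed them.
NCF1: cccagccagcactaTGtgtacatgttcctg
NCF1C: cccagccagcactatgtacatgttcctg

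Both copies carried counts and rose with ATRA as the gene did. NCF1B rose with ATRA over untreated cells by 3.83 ± 0.14 and NCF1C by 4.21 ± 0.15 on the log2 scale (adjusted p = 1.17e-14 and 4.68e-15). For DOX over untreated cells neither copy was called, while NCF1 was. There NCF1B averaged 6.47 ± 0.474 CPM in DOX and 6.51 ± 0.736 in untreated cells, and NCF1C 10.9 ± 2.18 and 9.48 ± 0.377 (SD, n = 3 each). NCF1 made up 53.1, 52.1 and 52.9% of the summed counts of the 3 genes in ATRA+DOX libraries, 49.5, 47.6 and 48.0% in ATRA libraries, 57.2, 55.5 and 61.5% in DOX libraries, and 49.8, 51.1 and 51.4% in untreated libraries. The groups do not overlap in this share for DOX against untreated, ATRA against untreated, ATRA+DOX against ATRA or ATRA+DOX against DOX, and each of these 4 exact two-sided permutation tests on n = 3 libraries a group gave p = 0.1, the smallest it can give. With the 3 rows summed, a setting added after the data were seen, the ATRA increase over untreated cells was 4.0 ± 0.13. The DOX increase was then 0.36 ± 0.13 with an adjusted p of 0.0631, so the call for DOX was not kept. How many reads of the copies came from NCF1 was not tested.

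**Figure D3:**
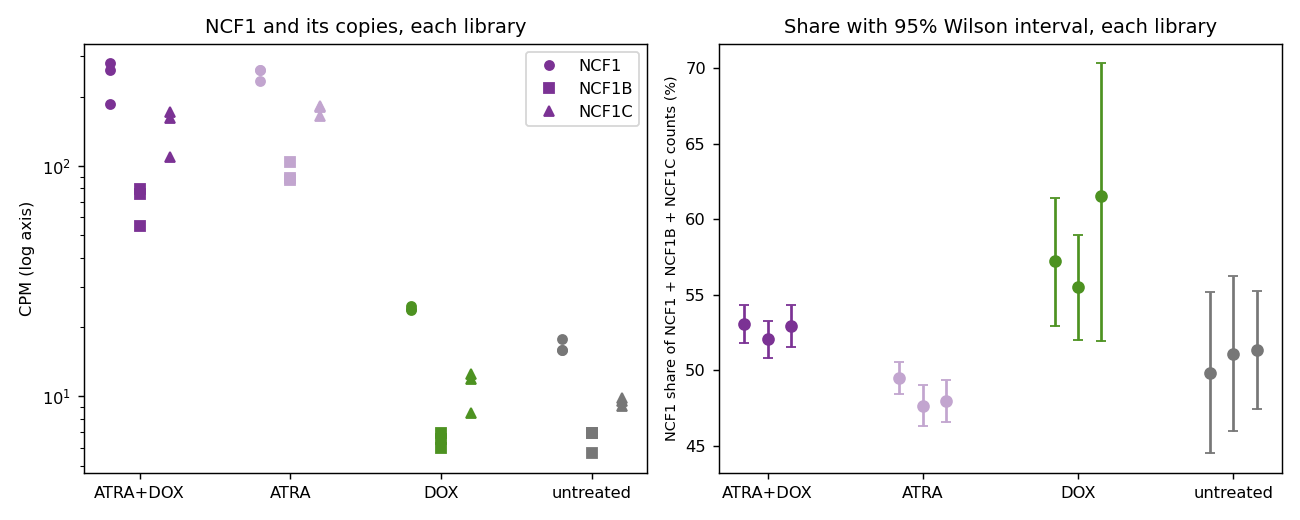
Left, CPM of NCF1, NCF1B and NCF1C in each library on a log axis; right, the share of NCF1 in their summed counts with its 95% Wilson interval, which covers counting error only. All 3 genes are higher in every library with ATRA than in any without it, and the share lies between 47.6 and 61.5%.

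CYBA partners CYBB in the membrane, and each stabilises the other (16:88643283-88651152, minus strand). It had 559, 658 and 686 CPM in ATRA+DOX libraries, 683, 689 and 523 in ATRA libraries, 447, 594 and 596 in DOX libraries, and 387, 436 and 480.4 in untreated libraries. Libraries with ATRA were all above the untreated ones, while 1 DOX library lay among them. Over untreated cells CYBA rose in ATRA cells by 0.54 ± 0.13 on the log2 scale, a fold of 1.45 (95% interval 1.21 to 1.74, adjusted p = 0.00255). The rise in ATRA+DOX over untreated cells was the same size, 0.54 ± 0.13 (adjusted p = 0.00196). DOX against untreated gave 0.33 ± 0.13 and ATRA+DOX against DOX 0.22 ± 0.13, neither past the threshold of 0.05 (adjusted p = 0.083 and 0.252).

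CYBC1 is a chaperone of the endoplasmic reticulum needed for the cytochrome to reach the membrane (17:82442589-82450829, minus strand). Its libraries had 126, 102 and 112 CPM in ATRA+DOX, 129.8, 132 and 129.7 in ATRA libraries, 98.1, 101 and 111 in DOX libraries, and 100.5, 104 and 115 in untreated cells. The ATRA libraries lay close together and above all others. CYBC1 rose in ATRA over untreated cells by 0.29 ± 0.09 (adjusted p = 0.0144). In ATRA+DOX cells the difference from ATRA cells was −0.20 ± 0.09 (adjusted p = 0.211). In GENCODE 29 it shares 57 of its 7234 exonic bases with HEXDC on the other strand, and NCF4 shares 27 of 1759 with NCF4-AS1. The strand setting of the counts is not given in the sources used here, so reads there cannot be told apart.

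NCF4, another subunit of the cytosolic complex, binds phosphatidylinositol 3-phosphate on the phagosome (22:36860988-36878015, plus strand). It had 80.6, 87.3 and 97.7 CPM in ATRA+DOX libraries, 112, 99.8 and 106 in ATRA libraries, 85.2, 72.6 and 96.8 in DOX libraries, and 85.2, 83.4 and 89.8 in untreated libraries. ATRA libraries lay above all ATRA+DOX and all untreated libraries. NCF4 rose in ATRA over untreated cells by 0.30 ± 0.10 (adjusted p = 0.0244), and ATRA+DOX cells differed from ATRA cells by −0.26 ± 0.10 (adjusted p = 0.136). The ATRA calls of NCF4 and CYBC1 were lost when all libraries were thinned to the smallest total (adjusted p = 0.185 and 0.115) and without untreated replicate 1 or 2 (adjusted p from 0.0581 to 0.0896). The NCF4 call was also lost without ATRA replicate 1 (adjusted p = 0.0949).

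RAP1A, a small GTPase that copurifies with the cytochrome, averaged between 64.3 and 71.6 CPM in the 4 groups, with adjusted p-values from 0.149 to 0.943 in the 5 comparisons of 1 group with another.

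RAC1 and RAC2 are the GTPases that activate the assembled enzyme; RAC2 is the main form in human neutrophils, and RAC1 in monocytes and macrophages. RAC1 (7:6374523-6403977, plus strand) had 149, 174.6 and 165 CPM in ATRA+DOX libraries, 174.6, 146 and 164 in ATRA libraries, 163, 200.1 and 175 in DOX libraries, and 161, 167 and 147 in untreated libraries. Its groups overlapped in every comparison, and its changes lay between −0.14 and 0.19 on the log2 scale (adjusted p from 0.183 to 0.97). For ATRA over untreated cells the 95% interval of its change was −0.16 to 0.23.

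RAC2 (22:37225261-37244448, minus strand) had 263, 288 and 313 CPM in ATRA+DOX libraries, 246, 223 and 236 in ATRA libraries, 315, 313 and 345 in DOX libraries, and 289, 274 and 239 in untreated libraries. Every DOX library lay above every untreated one, and every ATRA+DOX library above every ATRA one. RAC2 rose in DOX over untreated cells by 0.27 ± 0.09 (fold 1.21, adjusted p = 0.0446). That call was lost in 11 of 15 alternatives, among them the replicate block (adjusted p = 0.0567), and the change lay between 0.21 and 0.35 with 1 library left out. ATRA+DOX cells differed from ATRA cells by 0.29 ± 0.09, which did not pass (adjusted p = 0.0725) and passed in DESeq2 (adjusted p = 0.0348). The DOX share of mitochondrial ribosomal RNA was at most 2.18% and the untreated share at least 2.54%. A term for that share therefore cannot be fully told apart from the DOX difference. With that share as a term in the model the RAC2 change for DOX was 0.08 ± 0.12 and the adjusted p 0.928, while the change for ATRA over untreated cells, −0.18 ± 0.09 without the term (adjusted p = 0.133), was −0.25 ± 0.08 with it (adjusted p = 0.0246).

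Read as a set, the members called higher in ATRA over untreated cells were 4 of the 6 tested, NCF1, CYBA, NCF4 and CYBC1, where 15.7% of the 16104 genes tested were called higher. No member was called lower, where 13.2% of genes were. The count of 4 was 2 at equal depth and 2 to 4 with 1 library left out. The members were chosen with earlier results of these data known, so the shares are a description. The median change of the 6 was 0.29 on the log2 scale and that of all genes −0.01. In ATRA+DOX over DOX cells NCF1 was the 1 member called higher, beside 10.7% of genes called higher and 8.24% lower. The median there was 0.12 for members and −0.01 for all genes. These comparisons share no libraries and both ask what ATRA does, with the hairpin off and on.

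The remaining comparisons share libraries with these. For DOX over untreated cells 2 members were called higher, NCF1 and RAC2, beside 8.08% of all genes higher and 7.1% lower. Both calls were lost with the mitochondrial ribosomal RNA term, with equal depth, and with untreated replicate 3 and DOX replicate 3 left out together. The share behind that term does not overlap between DOX and untreated libraries, so it cannot be fully told apart from the DOX difference. The NCF1 change was 0.40 ± 0.19 with the term (adjusted p = 0.566), 0.26 ± 0.20 at equal depth (adjusted p = 0.444) and 0.59 ± 0.18 without those libraries (adjusted p = 0.0981). It was also lost without DOX replicate 2 (0.54, adjusted p = 0.0696) or untreated replicate 2 (0.50, adjusted p = 0.0504).

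For ATRA+DOX over ATRA cells no member was called by edgeR, beside 1.89% of all genes higher and 2.54% lower. At an unadjusted p under 0.05 there were 3, RAC2 higher and NCF4 and CYBC1 lower, where 3053 genes, or 19.0%, had such a p in either direction, and DESeq2 called 1, RAC2. For ATRA+DOX over untreated cells 2 were called higher, NCF1 and CYBA, beside 19.6% of genes higher and 18.5% lower. The interaction, which is the ATRA effect with DOX minus the ATRA effect without it, was called for no member by edgeR or DESeq2, beside 0.0435% of genes higher and 0.224% lower. At an unadjusted p under 0.05 there was 1, NCF1, with −0.59 ± 0.18 (95% interval −0.96 to −0.22, edgeR adjusted p = 0.208), where 10.8% of all genes had such a p. The fold with ATRA was 10.1 when DOX was present and 15.2 when it was not, and NCF1 ended at 242 ± 49.6 CPM in ATRA+DOX and 252 ± 15.9 CPM in ATRA cells (SD, n = 3 each).

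**Figure D4:**
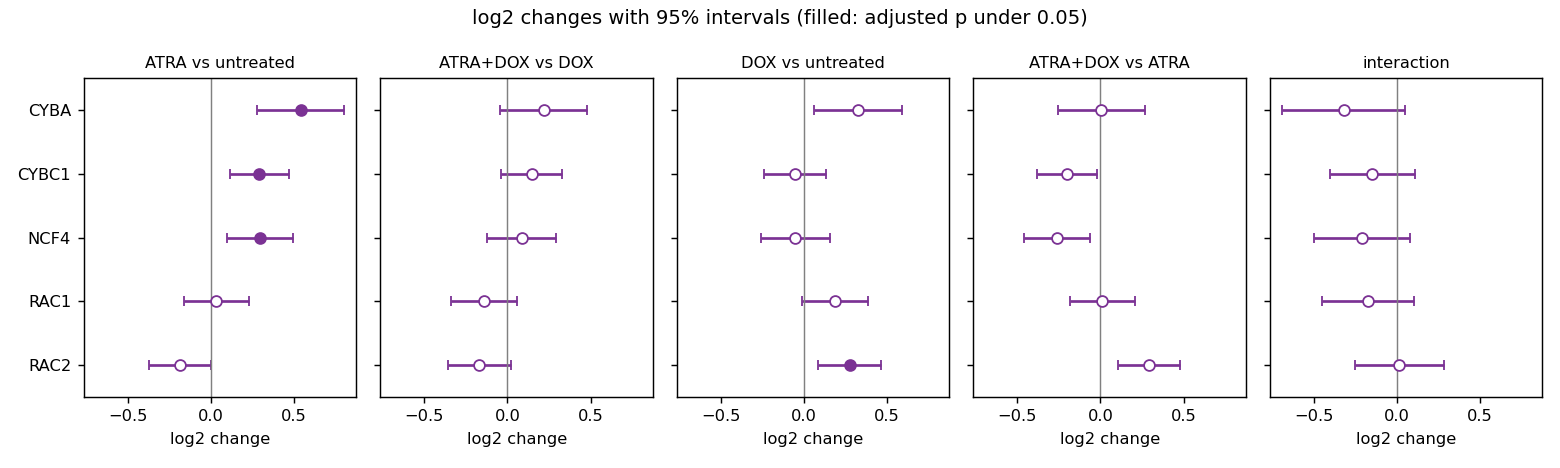
Log2 changes with 95% intervals for CYBA, CYBC1, NCF4, RAC1 and RAC2 in 5 contrasts. These are ATRA against untreated, ATRA+DOX against DOX, DOX against untreated, ATRA+DOX against ATRA and the interaction. NCF1 is left out because its changes for ATRA against untreated (3.93) and ATRA+DOX against DOX (3.33) lie off the shared axis. Filled points have an edgeR adjusted p under 0.05; in these 5 contrasts they are CYBA, CYBC1 and NCF4 for ATRA against untreated and RAC2 for DOX against untreated.

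Genes that act on the oxidase were followed as lists. Of 15 genes of oxidase activation, all tested, 4 rose and 2 fell in ATRA over untreated cells, with a median of 0.11 on the log2 scale, where 15.7% of all genes were called higher and 13.2% lower. The rises were led by PIK3R5, a regulatory subunit of the leukocyte PI3-kinase gamma, at 1.51 ± 0.11 (adjusted p = 1.18e-09). PAK1, a kinase that phosphorylates NCF1, rose by 0.58 ± 0.08 and HVCN1, the proton channel that balances the charge the oxidase moves, by 0.78 ± 0.11 (adjusted p = 1.19e-05 and 1.41e-05). Among the 15, 4 rose and 1 fell in ATRA+DOX over DOX cells, with PIK3R5 at 1.12 ± 0.12, PAK1 at 0.57 ± 0.08 and PRKCB, a protein kinase C that phosphorylates NCF1, at 0.57 ± 0.10 (adjusted p = 5.9e-07, 3.16e-05 and 0.000174). None rose and 2 fell in ATRA+DOX over ATRA cells, PIK3R5 by 0.43 and MAPK14, the p38 kinase, by 0.33 on the log2 scale (adjusted p = 0.0239 and 0.0275). These calls were lost in 6 and 9 of 14 alternatives. Over all genes, 1.89% were called higher in ATRA+DOX over ATRA cells and 2.54% lower. The shares in ATRA+DOX over DOX cells were 10.7% and 8.24%, and in DOX over untreated cells 8.08% and 7.1%. In DOX over untreated cells PRDX6, whose phospholipase activity promotes assembly, was the 1 gene called, at 0.28 ± 0.08 (adjusted p = 0.027), and its call was lost in 8 of 15 alternatives (adjusted p from 0.0556 to 0.877).

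Among 11 regulators of RAC, 1 rose and 3 fell in ATRA over untreated cells, where 15.7% of all genes were called higher and 13.2% lower. PREX1, a guanine nucleotide exchange factor for RAC in neutrophils, rose by 0.76 ± 0.09 (adjusted p = 9.19e-07). BCR, which has a GTPase-activating domain for RAC, had −0.43 ± 0.11 and TIAM1, another exchange factor, −0.88 ± 0.24 (adjusted p = 0.00469 and 0.0078). The rises in ATRA+DOX over DOX cells were 2, PREX1 by 0.57 ± 0.09 and ABR, a relative of BCR, by 0.24 ± 0.08 (adjusted p = 8.37e-05 and 0.0361). The ABR call was lost in 9 of 15 alternatives, among them the replicate block (adjusted p = 0.0514). Beside these rises, 10.7% of all genes were called higher in ATRA+DOX over DOX cells and 8.24% lower. In ATRA+DOX over ATRA cells BCR was the 1 called, at 0.38 ± 0.11 (adjusted p = 0.0461), a call lost in 11 of 14 alternatives, and DESeq2 called none. By edgeR 1.89% of all genes were called higher there and 2.54% lower. For DOX over untreated cells edgeR and DESeq2 called none, where edgeR called 8.08% of all genes higher and 7.1% lower. By edgeR 2 had an unadjusted p under 0.05, where 32.1% of all genes had such a p.

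The 11 genes of NADPH supply had 3 rises and no fall in ATRA over untreated cells and 3 rises and no fall in DOX over untreated cells. Of all genes, 15.7% were called higher and 13.2% lower for ATRA, and 8.08% and 7.1% for DOX. IDH1, the cytosolic NADPH-forming isocitrate dehydrogenase, averaged 232 ± 2.98 CPM in ATRA+DOX, 180 ± 2.06 in ATRA, 134 ± 17.4 in DOX and 89.0 ± 6.12 in untreated cells (SD, n = 3 each). It rose with ATRA over untreated cells by 1.01 ± 0.09 (adjusted p = 1.51e-08), with DOX over untreated cells by 0.57 ± 0.09 (adjusted p = 0.000905) and in ATRA+DOX over ATRA cells by 0.37 ± 0.09 (adjusted p = 0.0161), the last of which was lost in 4 of 14 alternatives. PGD, of the pentose phosphate pathway, and NADK, which makes NADP, rose with ATRA over untreated cells by 0.30 ± 0.09 and 0.24 ± 0.08 (adjusted p = 0.0132 and 0.0203), with the calls lost in 2 and 7 of 15 alternatives. With DOX over untreated cells the other rises were malic enzyme ME1 at 0.98 ± 0.18 and TALDO1 at 0.28 ± 0.08 (adjusted p = 0.00221 and 0.0285), lost in 2 and 9 of 15. The 3 rises in ATRA+DOX over DOX cells, with no fall, were IDH1 at 0.81 ± 0.09, the transketolase gene TKT at 0.33 ± 0.09 and PGD at 0.29 ± 0.09 (adjusted p = 7.28e-07, 0.0135 and 0.0233). The IDH1 call was lost in 0 of 15 alternatives and the TKT and PGD calls in 5 each. In ATRA+DOX over DOX cells 10.7% of all genes were called higher and 8.24% lower. Without untreated replicate 3 and DOX replicate 3, 1 gene of the list was called for ATRA and 1 for DOX, each over untreated cells.

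Genes that remove or use superoxide and peroxide were listed as 14, of which 13 had a row here and SOD2 was not analysed. In DOX over untreated cells 8 rose and none fell, with a median of 0.46 on the log2 scale against 0.01 for all genes. Of all genes, 8.08% were called higher there and 7.1% lower. CAT, which breaks down hydrogen peroxide, rose by 0.53 ± 0.10, the glutaredoxin gene GLRX by 0.64 ± 0.12 and MPO, which makes hypochlorous acid from peroxide, by 0.69 ± 0.14 (adjusted p = 0.00252, 0.00258 and 0.00373). In place of 8 the count was 1 with the mitochondrial ribosomal RNA term and 0 without untreated replicate 3 and DOX replicate 3. DOX and untreated libraries do not overlap in the share behind that term, so it cannot be fully told apart from the DOX difference. Calls over all genes also fell in both settings, from 2446 to 77 with the term. In ATRA over untreated cells 2 rose and 2 fell, where 15.7% of all genes were called higher and 13.2% lower. GPX1, a glutathione peroxidase, rose by 0.77 ± 0.13, while MPO had −0.77 ± 0.14 and the peroxiredoxin PRDX1 −0.32 ± 0.09 (adjusted p = 0.000101, 0.000218 and 0.0136). The PRDX1 call was lost in 3 of 15 alternatives, each with 1 library left out. MPO averaged 196 ± 55.4 CPM in ATRA+DOX, 89.9 ± 7.61 in ATRA, 249 ± 32.0 in DOX and 153 ± 5.96 in untreated cells (SD, n = 3 each), and rose in ATRA+DOX over ATRA cells by 1.13 ± 0.14 (adjusted p = 4.2e-05). PRDX1 was the other gene of the list that rose there, by 0.36 ± 0.09 (adjusted p = 0.0293, lost in 7 of 14 alternatives), and none fell. Beside these, 1.89% of all genes were called higher and 2.54% lower. In ATRA+DOX over DOX cells none rose and 4 fell, led by CAT, PRDX1 and the superoxide dismutase SOD1 at −0.64 ± 0.10, −0.41 ± 0.09 and −0.43 ± 0.12 (adjusted p = 6.08e-05, 0.00309 and 0.0179). The SOD1 call was lost in 5 of 15 alternatives. Over all genes, 10.7% were called higher in ATRA+DOX over DOX cells and 8.24% lower.

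**Figure D5:**
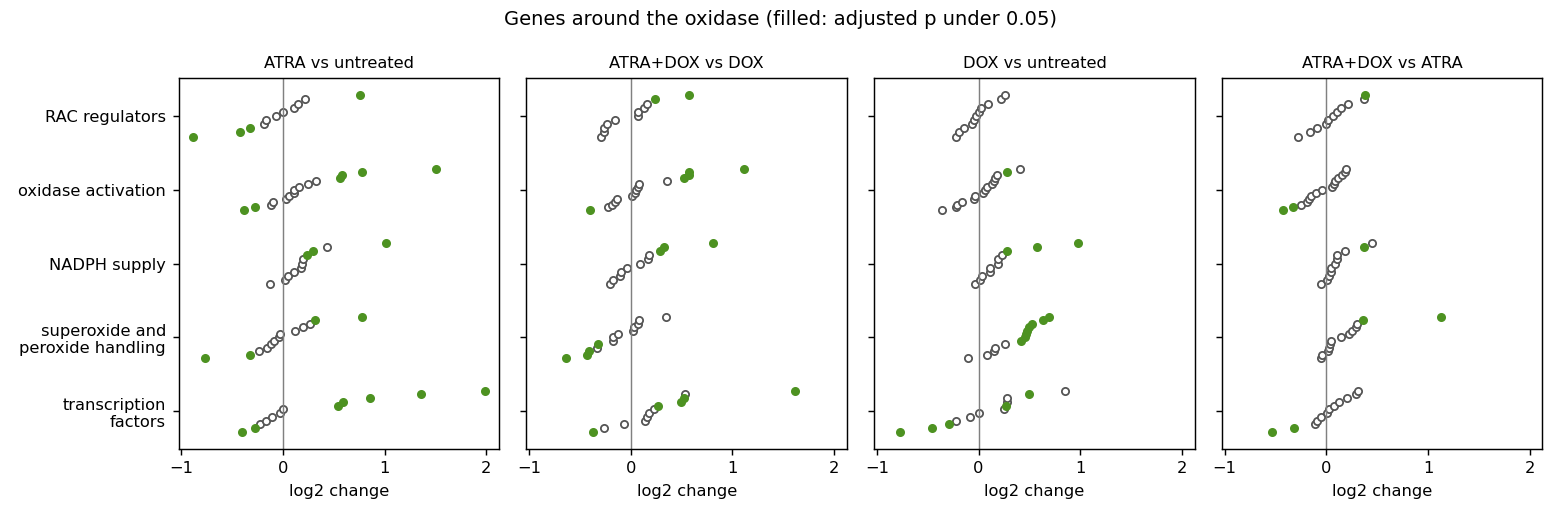
Log2 changes of the tested genes of 5 lists around the oxidase in 4 contrasts, 1 point a gene, spread vertically within its list. Filled points have an edgeR adjusted p under 0.05; the farthest to the right is IRF1, at 1.98 for ATRA against untreated and 1.62 for ATRA+DOX against DOX.

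Of 12 transcription factors known at oxidase genes, 5 rose and 2 fell in ATRA over untreated cells, beside 15.7% of all genes higher and 13.2% lower. IRF1, an interferon regulatory factor that acts at the CYBB promoter, averaged 146 ± 3.62 CPM in ATRA+DOX, 134 ± 1.65 in ATRA, 48.0 ± 2.93 in DOX and 33.9 ± 0.707 in untreated cells (SD, n = 3 each). It rose with ATRA over untreated cells by 1.98 ± 0.08 and with DOX over untreated cells by 0.49 ± 0.08 (adjusted p = 2.77e-14 and 0.00114). IRF8 rose with ATRA over untreated cells by 0.85 ± 0.09 and SPI1, which encodes PU.1, by 0.59 ± 0.08 (adjusted p = 1.34e-07 and 9.59e-06). Of the same 12, 4 rose and 1 fell in ATRA+DOX over DOX cells, where 10.7% of all genes were called higher and 8.24% lower. The rises were led by IRF1 at 1.62 ± 0.08, IRF8 at 0.52 ± 0.09 and the myeloid factor CEBPA at 0.49 ± 0.10 (adjusted p = 1.58e-12, 0.000146 and 0.00178). In ATRA+DOX over ATRA cells none rose and 2 fell, where 1.89% of all genes were called higher and 2.54% lower. IRF8 had −0.32 ± 0.09 and CUX1, a repressor at the CYBB promoter, −0.53 ± 0.11 (adjusted p = 0.0366 and 0.00568). The IRF8 call was lost in 8 of 14 alternatives, among them the replicate block (adjusted p = 0.0515), and the CUX1 call in none. CUX1 and the coactivator CREBBP fell in DOX over untreated cells by 0.78 and 0.46 on the log2 scale (adjusted p = 0.000448 and 0.0074), where 2 of the list rose and 3 fell. Of all genes, 8.08% were called higher there and 7.1% lower. With the mitochondrial ribosomal RNA term none of the 12 was called for DOX over untreated cells, while calls over all genes fell from 2446 to 77. As said above, that term cannot be fully told apart from the DOX difference. At an unadjusted p under 0.05 without the term there were 9 of the 12, where 32.1% of all genes had such a p.

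The other NADPH oxidases and their partners were listed as 10 genes, of which DUOX1, NOXA1 and NOXO1 were abundant enough to test. None was called in any contrast by edgeR or DESeq2, and none had an unadjusted p under 0.05. For ATRA over untreated cells 15.7% of all genes were called higher and 13.2% lower by edgeR, and 39.9% had such an unadjusted p. For the interaction the shares were 0.0435%, 0.224% and 10.8%. The 3 genes had 24 to 141 counts summed over a group, so the lack of calls says little about them. NOX3, NOX4 and DUOXA2 had no counts in the 12 libraries, where a count of 0 allows up to 3 counts in a library (one-sided 95% limit).

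In ATRA+DOX over untreated cells, which differ in both agents, 2 of the RAC regulators rose and 2 fell, 5 and 1 of oxidase activation, 6 and 0 of NADPH supply, 4 and 0 of superoxide and peroxide handling, and 5 and 3 of the transcription factors. Of all genes, 19.6% were called higher there and 18.5% lower. The highest change of each list there was PREX1 at 0.60 ± 0.09, PIK3R5 at 1.08 ± 0.11, IDH1 at 1.39 ± 0.09, GPX1 at 0.81 ± 0.13 and IRF1 at 2.11 ± 0.08 (adjusted p from 1.15e-14 to 5.56e-05). For the interaction edgeR and DESeq2 called no gene of any list, where edgeR called 0.0435% of all genes higher and 0.224% lower. At an unadjusted p under 0.05 by edgeR there were 0 RAC regulators, 1 gene of oxidase activation, 1 of NADPH supply, 5 of superoxide and peroxide handling and 5 transcription factors, beside 1735 of the 16104 genes tested, or 10.8%.

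The genes whose log2 CPM ran most like that of a member over the 12 libraries are given as a description, since the libraries share their groups and depths and 12007 genes were compared. For NCF1 they were FAM20C, CD38 and SLC43A2, with Pearson correlations of 0.996, 0.995 and 0.995. For CYBA they were YIF1B, FLYWCH2 and RING1 (0.966, 0.961 and 0.951), for CYBC1 GPR132, SPATA20 and OSBPL5 (0.948, 0.941 and 0.931) and for NCF4 CAPN10, CALCOCO1 and IPCEF1 (0.922, 0.918 and 0.913). RAC2 ran with PYGL, RBM38 and PRPS1 (0.981, 0.948 and 0.942), and RAC1 with CCDC25, RPP30 and MRPS14 (0.888, 0.882 and 0.876).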

How the data were processed

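RNA from MOLM14 cells gave 12 libraries, sequenced from both ends on an Illumina instrument, per the labels' protocols. The authors deposited 1 table of raw counts, whole numbers for each Ensembl gene; FastQC, STAR, HTSeq and the build GRCh38 are named in the submitters' processing notes. Versions, annotation release and strand setting are not given in the sources used here, so overlapping genes and near-identical copies are uncertain. Every column with values was mapped to a sample. Coordinates, exon lengths and overlaps came from GENCODE 29 on GRCh38, which held 58312 of the 61487 IDs, and promoters from RefSeq on GRCh38.p14.

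edgeR 4.0.16 in R 4.3.3 was run on all 12 libraries as 1 model of 4 group means. filterByExpr kept 16104 genes, TMM scaled the libraries, and glmQLFTest gave p-values, adjusted by Benjamini-Hochberg over all genes tested, with a threshold of 0.05. "Called" means past that threshold. SE is the log2 change divided by the square root of F. CPM is scaled by TMM. The biological coefficient of variation was 9.54%. The procedure was tested on simulated data. DESeq2 1.42.0 was an alternative, and shares were compared with SciPy 1.17.1.

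The members and lists were chosen with earlier results of these data known. All members, the partners RAP1A, NCF1B and NCF1C, up to 3 called genes per list and contrast with the smallest adjusted p, and the 3 genes of most similar pattern with at least 2 CPM on average are named. Alternatives were DESeq2, other scalings, no filter, a replicate block, a mitochondrial ribosomal RNA term, equal depth by 1 seeded thinning, only the groups compared, and libraries left out. Libraries held 2685984 to 19358619 counts, and the smallest gives the least precise values; counting intervals cover counting error only.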

Additional observations from a re-analysis of the deposited data

How the results depend on the processing

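Among the alternative values of the tested members, 25 lost a call, 7 gained one, 538 did neither and none turned a called direction round. NCF1 was called in every alternative run for ATRA over untreated cells (3.77 to 4.0 on the log2 scale), ATRA+DOX over DOX (3.22 to 3.51) and ATRA+DOX over untreated cells (3.63 to 4.04). The members called for ATRA over untreated cells were 2 at equal depth and 2 to 4 with 1 library left out, against 4 reported. For DOX over untreated cells they were 1 with library size alone, 1 with the replicate block, 1 with only the groups compared, 0 with the mitochondrial ribosomal RNA term, 0 without untreated replicate 3 and DOX replicate 3, 0 at equal depth, and 0 to 3 with 1 library left out, against 2. For ATRA+DOX over ATRA cells they were 1 in DESeq2, 1 with only the groups compared and 0 to 1 with 1 library left out, against 0. For ATRA+DOX over untreated cells the term left 1 of 2, since CYBA had 0.40 (adjusted p = 0.0675). For the interaction 1 was called with no filter on low counts, NCF1 at −0.62 (adjusted p = 0.0383). The cause was not tested. The mitochondrial term cannot be fully told apart from the DOX difference, since DOX and untreated libraries do not overlap in that share.

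The replicate block ended the RAC2 call for DOX (0.27, adjusted p = 0.0567) and changed no other call of a member. Deviations of same-numbered libraries from their group means correlated between −0.32 and 0.35 over 9810 genes. Of 18 such correlations 5 were over 0.1; the 6 of replicate 2 were positive, as were the 3 between ATRA+DOX and DOX libraries (0.07 to 0.35). The rule used, that every one be over 0.1, was not met, and the numbers were not taken to pair the samples. Differently numbered libraries were not compared, so these values cannot decide whether some libraries share a batch.

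Over all genes, those called for DOX over untreated cells numbered 2446, but 77 with the term, 169 without the 2 libraries, 1161 at equal depth, 1573 with only the groups compared and 659 (without DOX replicate 2) to 4326 (without DOX replicate 1) with 1 library left out. DOX replicates 1 and 2 differed more than any other pair of replicates, with a chi-square per degree of freedom of 25.4, against 2.42 to 11.6 in the others. At equal depth there were 2644 in place of 4652 for ATRA over untreated cells, 385 in place of 713 for ATRA+DOX over ATRA, 1878 in place of 3054 for ATRA+DOX over DOX and 3362 in place of 6123 for ATRA+DOX over untreated cells (3363 with the term). With 1 library left out ATRA+DOX over ATRA gave 264 to 907. The interaction gave 43, but 120 in DESeq2, 24 with library size alone, 189 with no filter, 9 without the 2 libraries, 18 at equal depth and 10 to 747 with 1 library left out. Alternatives for the listed genes, added after the data were seen, lost a call 296 times, gained one 69 times and turned none round.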

Other observations

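The transcript of the copy NCF1B matched that of NCF1 at 98.97% of the aligned bases, with 12 mismatches and 90 bases in gaps. NCF1B had −0.42 ± 0.12 in ATRA+DOX over ATRA cells on the log2 scale (edgeR adjusted p = 0.0426), a call lost in 7 of 14 alternatives (adjusted p from 0.0594 to 0.214), where NCF1 had −0.06 ± 0.11 and NCF1C −0.25 ± 0.12 (adjusted p = 0.816 and 0.251).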
